A study of Mus musculus with 2 samples.

Results

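The hair bundle and mechanotransduction genes are 32 listed genes whose proteins build, anchor or operate the stereocilia of hair cells. All 32 were found by symbol among the 31053 genes of both count matrices. A hair bundle is a staircase of actin-filled stereocilia on the apical surface of a hair cell. Tip links of cadherin 23 and protocadherin 15 pull on channels built from TMC proteins when the bundle is deflected, and myosins, actin crosslinkers and Usher scaffolds set and hold its shape. In the cochlea these proteins are best known from inherited deafness, and several also serve the microvilli of other epithelia.

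The cells came from cultured cochleae of C57BL/6J mice, 4 to 6 weeks of age, in 2 groups. The cocktail group received VPA (1.5 mM), LiCl (8 mM), FSK (20 µM), siFIR and siMxi1 (0.02 µM each) over 4 days, and the vehicle group received sterile water with 0.1% DMSO over the same time. Both groups then carried ad.Atoh1, an adenovirus for the hair cell transcription factor Atoh1, for 2 weeks, so no library is without it. The cell type that takes up the virus and the promoter of the virus are not given in the sources used here. Dissociated cells of 5 cultures per group were captured as 1 droplet library (10x 3' chemistry), which gives 1 library per condition, no replicate check and no test of any difference between the conditions. Every interval below is a 95% interval that covers the counting error of these libraries only.

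After filtering (at least 500 UMIs, 300 genes and at most 20% mitochondrial UMIs per barcode), 1329 of 1403 cocktail cells and 1584 of 1688 vehicle cells were kept, with medians of 10391 and 12267 UMIs per cell and no barcode in common. A UMI is 1 counted RNA molecule, and levels are UMIs per 1000000 UMIs (CPM) of the cells that were summed. CPM values are compared between groups of cells within a gene and not between genes. Each kept cell was placed in 1 of 4 groups or in none. Cells with at least 1 UMI of both Ptprq and Tmc1 numbered 7 in cocktail and 30 in vehicle, or 0.527% (0.212 to 1.08) and 1.89% (1.28 to 2.69) of kept cells. Gal and Cck rich cells (5000 CPM or more of Gal with 2000 or more of Cck, and 3 UMIs or more of each) numbered 165 and 115. Ceacam16 cells (at least 500 CPM and 3 UMIs) numbered 83 and 38. Mesenchyme, with at least 2000 CPM over 8 genes of the extracellular matrix and its cells, at least 3 of them with a UMI, and no Epcam UMI, numbered 92 and 190. The remaining 982 and 1211 cells were left in no group.

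Ptprq and Tmc1 choose the first group, so their own levels there are a description. The group was checked against hair cell genes that are no bundle genes: all 14 of these (among them Pou4f3, Gfi1, Cabp2 and Otof) had UMIs in it in both libraries, with a summed level of 4273 CPM in cocktail and 4815 in vehicle. All 14 also had UMIs in the cells in no group, at a summed 740 and 632 CPM. At least 3 of 8 such markers were present in 6 of the 7 cocktail cells and in 30 of the 30 vehicle cells. Ceacam16 cells (0 of 83 and 0 of 38) and mesenchyme (0 of 92 and 0 of 190) held no cell of that kind, which allows shares of up to 3.61% and 7.89%, and 3.26% and 1.58%. Of all cells with at least 3 of the 8, 15 of 21 in cocktail and 10 of 40 in vehicle lay outside the group, in Gal and Cck rich cells (5 and 2) and in no group (10 and 8). The cocktail cell without these markers stood apart in other ways as well. It had 33953 UMIs, the most in its group, but 7 bundle genes and 10 UMIs of them, a single Ptprq UMI, a single Tmc1 UMI and 189 Cck UMIs. Its bundle genes summed to 295 CPM, against 6109 CPM or more in each of the other cocktail cells. Just outside the limit, 23 cocktail and 33 vehicle cells had Tmc1 without Ptprq, and 9 and 27 had Ptprq without Tmc1.

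The bundle genes fell into 3 kinds by where their UMIs were. At least 50% of the UMIs of 8 genes came from the few cells with Ptprq and Tmc1 in both libraries: Tmc1, Lhfpl5, Loxhd1, Fscn2, Xirp2, Grxcr1, Grxcr2 and Ptprq. Under 25% did so for 11 genes: Cdh23, Pcdh15, Cib2, Myo6, Espnl, Whrn, Eps8, Triobp, Tprn, Ush1c and Ush1g. The second kind is defined by this share alone and includes Espnl and Ush1g, which had few UMIs anywhere (35 and 57, and 7 and 10). The other 13 lay between. Ptprq and Tmc1 choose these cells, so their own shares there are in part set by that choice. The share of all genes that meets each limit was not counted, so these counts do not show how unusual the list is. The sequences just upstream of the transcription start (RefSeq, GRCm38.p6) are shown for the members of the first kind that have an entry, for 3 genes of the second kind and for Myo15, so that a reader can set the proximal promoters of the kinds beside each other. Each run is 5' to 3' on the strand of the gene and ends before the first annotated base of the gene, and capitals mark CAGCTG, an E-box of the form that basic helix-loop-helix factors such as Atoh1 can bind.
Tmc1 (chr19:20954203-20954452, - strand): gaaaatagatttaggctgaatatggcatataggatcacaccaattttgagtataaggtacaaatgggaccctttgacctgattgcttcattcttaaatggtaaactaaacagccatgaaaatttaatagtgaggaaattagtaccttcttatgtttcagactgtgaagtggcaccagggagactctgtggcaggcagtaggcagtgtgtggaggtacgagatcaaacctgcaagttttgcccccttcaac
Lhfpl5 (chr17:28575469-28575640, + strand): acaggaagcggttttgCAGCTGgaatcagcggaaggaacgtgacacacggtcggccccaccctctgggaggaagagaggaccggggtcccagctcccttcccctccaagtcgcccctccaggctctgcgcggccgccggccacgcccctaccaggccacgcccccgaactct
Fscn2 (chr11:120361284-120361533, + strand): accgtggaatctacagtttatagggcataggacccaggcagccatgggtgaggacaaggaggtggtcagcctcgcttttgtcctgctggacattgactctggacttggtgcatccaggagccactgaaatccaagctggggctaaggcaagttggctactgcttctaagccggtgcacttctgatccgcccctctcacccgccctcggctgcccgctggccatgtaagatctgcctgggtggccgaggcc
Xirp2 (chr2:67445752-67446001, + strand): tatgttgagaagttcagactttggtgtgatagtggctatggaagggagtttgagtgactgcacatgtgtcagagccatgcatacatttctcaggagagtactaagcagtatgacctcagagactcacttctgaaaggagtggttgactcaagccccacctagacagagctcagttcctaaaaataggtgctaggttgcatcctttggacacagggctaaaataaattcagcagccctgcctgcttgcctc
Grxcr1 (chr5:68031585-68031834, + strand): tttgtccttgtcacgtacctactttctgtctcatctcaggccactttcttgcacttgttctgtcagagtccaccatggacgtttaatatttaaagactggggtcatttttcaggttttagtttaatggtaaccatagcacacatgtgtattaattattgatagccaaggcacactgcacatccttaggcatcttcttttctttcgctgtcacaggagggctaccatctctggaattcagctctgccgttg
Cib2 (chr9:54560219-54560440, - strand): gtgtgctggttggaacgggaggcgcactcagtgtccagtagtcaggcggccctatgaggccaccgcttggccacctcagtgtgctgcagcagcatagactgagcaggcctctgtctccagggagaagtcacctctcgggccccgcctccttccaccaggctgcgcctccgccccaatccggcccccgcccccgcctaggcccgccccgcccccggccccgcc
Myo6 (chr9:80164784-80165030, + strand): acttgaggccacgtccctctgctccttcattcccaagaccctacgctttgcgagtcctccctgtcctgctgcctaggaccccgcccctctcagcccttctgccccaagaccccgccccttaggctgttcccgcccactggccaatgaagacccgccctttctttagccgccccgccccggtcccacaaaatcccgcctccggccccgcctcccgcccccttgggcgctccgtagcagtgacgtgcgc
Ush1c (chr7:46238504-46238740, - strand): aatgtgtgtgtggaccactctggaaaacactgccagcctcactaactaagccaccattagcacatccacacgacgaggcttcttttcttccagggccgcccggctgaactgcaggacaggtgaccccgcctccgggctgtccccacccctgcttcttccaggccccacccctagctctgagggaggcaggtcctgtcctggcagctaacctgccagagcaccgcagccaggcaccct
Myo15 (chr11:60469089-60469338, + strand): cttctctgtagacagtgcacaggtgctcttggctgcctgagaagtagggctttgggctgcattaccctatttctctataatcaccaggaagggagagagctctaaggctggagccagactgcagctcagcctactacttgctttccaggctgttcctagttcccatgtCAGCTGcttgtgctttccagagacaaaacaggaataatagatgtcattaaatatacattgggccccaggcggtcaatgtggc

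A promoter entry was found for 26 of the 32 genes, with 31 promoters in all, and none for Tmc2, Loxhd1, Eps8, Grxcr2, Ush1g and Ptprq. For 27 of the 31 promoters, the bases after the start matched a transcript of the gene. In the 250 bases before the start, CAGCTG (the same on both strands) was present in 7 of the 31 promoters, or 22.6%, against 13.0% of all 32851 promoters. These 7 promoters belong to 6 genes. The first Espn promoter and the Pdzd7 promoter are among the 7 but did not match a transcript. CAGATG, searched on both strands and therefore also as CATCTG, was present in 2, or 6.45%, against 14.4% of all. Lhfpl5 was the single promoter with CAGCTG among the 5 of the genes concentrated in cells with Ptprq and Tmc1, and 6 of the 16 promoters of the intermediate genes and none of the 10 of the genes with under 25% there held it. The GC content of these windows had a median of 46.8% in the first kind (41.2 to 70.8), 57.8% in the intermediate genes and 62% in the genes with under 25% there (50.4 to 71.2), against 52.4% over all promoters. The Tmc1, Grxcr1 and Xirp2 windows above are rich in A and T, and those of Cib2 and Myo6 hold long runs of C and G. These are descriptions of windows grouped by the data and show no binding. The first kind includes Tmc1, which helps choose the cells.

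**Figure D1:**
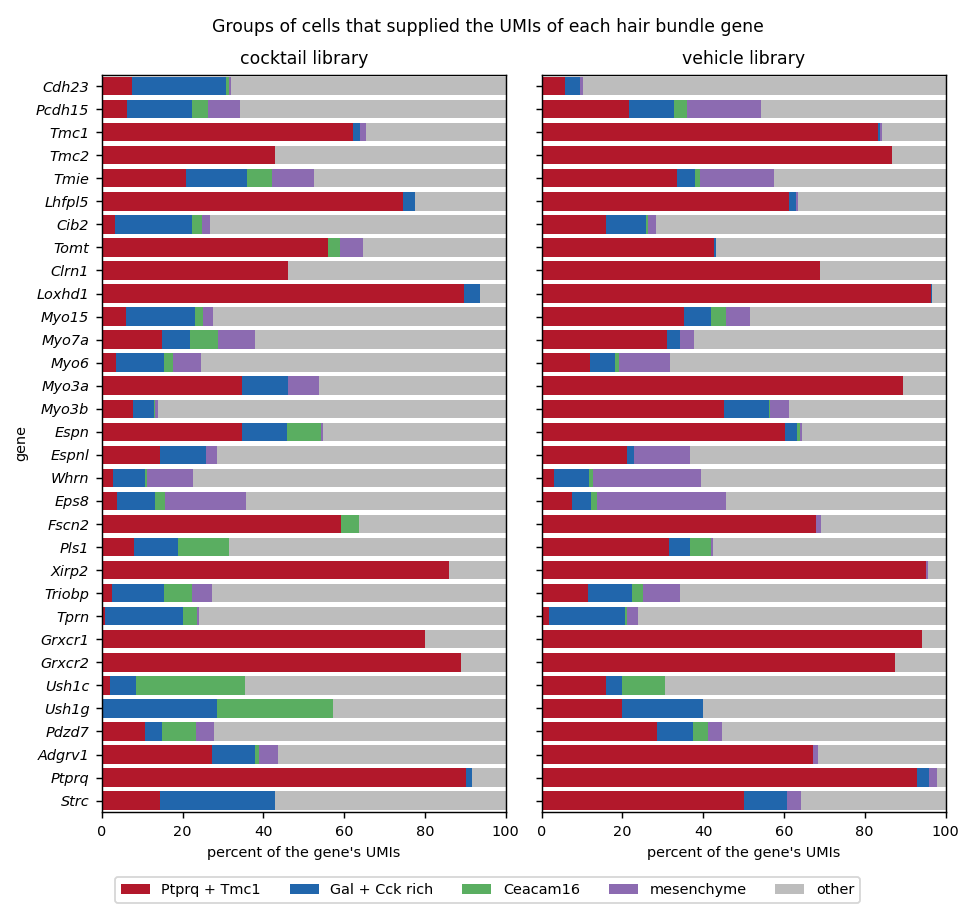
Percent of each gene's UMIs (horizontal axis) that came from cells with Ptprq and Tmc1, Gal and Cck rich cells, Ceacam16 cells, mesenchyme and all other kept cells, for the cocktail library (left) and the vehicle library (right). Loxhd1, Xirp2, Grxcr1 and Ptprq are almost wholly red in both panels, while Tprn, Whrn, Eps8 and Triobp have little red. Ptprq and Tmc1 choose the red cells.

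Cells with Ptprq and Tmc1 carried many of the other genes of the list at once. Ptprq and Tmc1 are left out of the counts of this paragraph, which leaves 30 genes. With every cell thinned to 5000 UMIs, a median of 14 of the 30 genes was seen per cocktail cell (range 1 to 19, 7 cells) and 13.5 per vehicle cell (5 to 18, 28 cells). The same depth gave a median of 2 in Gal and Cck rich cells, 2 in Ceacam16 cells and 1 in mesenchyme in both libraries. At full depth the median was 21 genes per cell in both libraries, at median depths of 21785 and 14342.5 UMIs. When thinned, at least 5 of the 30 genes were seen in 6 of 7 such cells of cocktail and 28 of 28 of vehicle. The same held for 7 of 92 and 5 of 79 Gal and Cck rich cells, 2 of 59 and 4 of 34 Ceacam16 cells, and 0 of 77 and 1 of 183 mesenchymal cells. Among the cells in no group it held for 34 of 590 and 43 of 834, with up to 9 genes in cocktail and 17 in vehicle, so that some of these cells overlap with the cells with Ptprq and Tmc1.

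**Figure D2:**
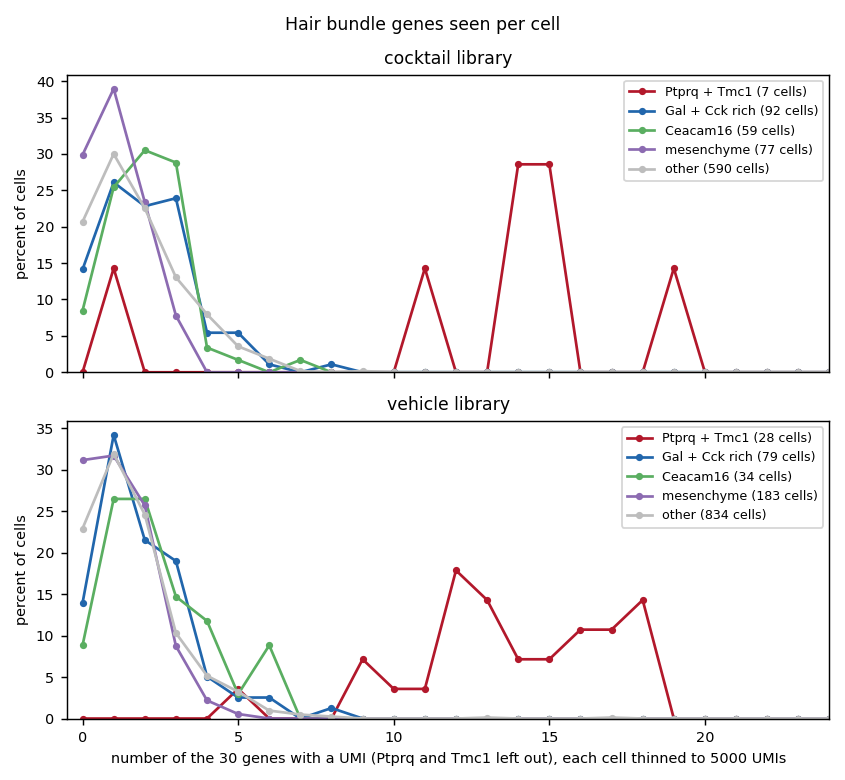
Percent of the cells of each group (vertical axis) against the number of bundle genes with a UMI, out of 30 with Ptprq and Tmc1 left out (horizontal axis), after thinning to 5000 UMIs, for cocktail (top) and vehicle (bottom). Cells with Ptprq and Tmc1 lie mostly between 9 and 19 genes, apart from the cocktail cell at 1 gene and a vehicle cell at 5, and the other groups peak at 1 to 2.

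Against Gal and Cck rich cells, 26 of the 28 bundle genes that could be compared were at least 2-fold higher in the cells with Ptprq and Tmc1 in both libraries and none was lower, where 15% of all genes were higher and 8.39% lower by the same rule. Ptprq and Tmc1 themselves were left out of these counts. The medians of the log2 ratio were 4.38 in cocktail and 4.51 in vehicle, against 0.14 and 0.10 over all genes. The exceptions were Whrn and Tprn. Against Ceacam16 cells the count was 23 of 25 (21.5% of all genes) with none lower (10%), and against mesenchyme 25 of 27 (21.1%) with none lower (13.2%). Genes without UMIs in Ceacam16 cells or mesenchyme passed the limit in the same way. Tprn is described with Gal and Cck rich cells and Whrn with mesenchyme.

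Among the tip link and transduction genes, Tmc1, the main pore-forming subunit of mature hair cells, reached 484 CPM in cocktail and 387 in vehicle. Tmc2, the pore subunit best known from immature hair cells, had 3 UMIs in 2 cocktail cells and 13 UMIs in 11 vehicle cells and none in the other 3 groups. Lhfpl5, which couples the channel to the tip link, stood at 306 CPM (228 to 404) and 252 (211 to 299), against 0.844 and 2.28 in Gal and Cck rich cells. Its accessory partner Tmie stood at 208 and 214 CPM. In mesenchyme Tmie was also counted, at 7.87 and 14.7 CPM, where Lhfpl5 had 0 and 1 UMIs. Tomt, needed to bring TMC proteins to the bundle, stood at 116 and 146 CPM. The tip link cadherins were both present: Pcdh15 at 386 and 464 CPM in 6 of 7 and 28 of 30 cells, and Cdh23 at 110 and 96.2 CPM in 4 of 7 and 17 of 30 cells. Loxhd1, a stereociliary protein of PLAT domains, stood at 423 and 508 CPM, in 6 of 7 and 29 of 30 cells. Clrn1, the Usher protein clarin 1, had 6 and 31 UMIs there (36.8 and 59.6 CPM) and, like Tmc2, none in the other 3 groups.

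The 5 unconventional myosins were all counted in these cells. Myo6, which anchors the base of the bundle, reached 411 and 602 CPM with a UMI in 7 of 7 and 29 of 30 cells. Myo15, which carries whirlin and Eps8 to stereocilia tips, stood at 73.6 CPM (38.0 to 129) in cocktail and 169 (136 to 209) in vehicle. Myo7a, the Usher myosin, stood at 79.7 and 98.1 CPM. Myo3a and Myo3b, which carry espins toward the tips, stood at 55.2 and 82.7 CPM and at 460 and 321 CPM. Myo3b was therefore higher in the cocktail cells and Myo3a in the vehicle cells, and the interval of the log2 difference excluded 0 for Myo3b (0.52, 0.10 to 0.92) but not for Myo3a (-0.58, -1.81 to 0.47).

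Of the actin genes, Espn, whose product bundles the stereociliary filaments, was at 1312 CPM (7 of 7 cells) and 2085 CPM (29 of 30 cells). Per cell it ran from 29.5 to 2176 CPM with a median of 1653 in cocktail, and from 0 to 5213 with a median of 2054 in vehicle, so the ranges overlap. Pls1 (plastin 1), another crosslinker, stood at 478 and 739 CPM. Xirp2, which is tied to the upkeep of actin in stereocilia, stood at 227 CPM (160 to 313) and 389 (337 to 446), and a single UMI of it, in vehicle mesenchyme, was counted in the other 3 groups of both libraries. Fscn2 (fascin 2) stood at 79.7 and 106 CPM with no UMI in Gal and Cck rich cells. Grxcr1 and Grxcr2, glutaredoxin-like proteins of the bundle, had 20 and 48 UMIs and 8 and 21 UMIs, and none in the other 3 groups. A count of 0 in Gal and Cck rich cells allows up to 1.27 and 1.71 CPM. The measured cocktail level of Grxcr1 was 96.9-fold the limit of 1.27 CPM, with 12 of its 20 UMIs from 1 cell. Triobp, a rootlet protein, stood at 208 and 335 CPM and Eps8, a tip capping protein, at 129 and 106 CPM. The espin-like Espnl had 5 and 12 UMIs.

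The Usher and link genes ended the list. Ptprq, a phosphatase of the shaft connectors, stood at 1569 and 2318 CPM. Adgrv1 and Pdzd7, of the ankle link complex, stood at 172 and 204 CPM and at 30.7 and 30.8 CPM. Ush1c (harmonin), the scaffold that holds the upper tip link, stood at 85.8 CPM (46.9 to 144) in cocktail and 227 (188 to 272) in vehicle. Strc (stereocilin), of the top connectors of outer hair cell bundles, had 1 UMI in cocktail and 14 in vehicle. Ush1g (Sans) was the gene with least evidence, with 0 and 2 UMIs there and 7 and 10 UMIs over the whole libraries.

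**Figure D3:**
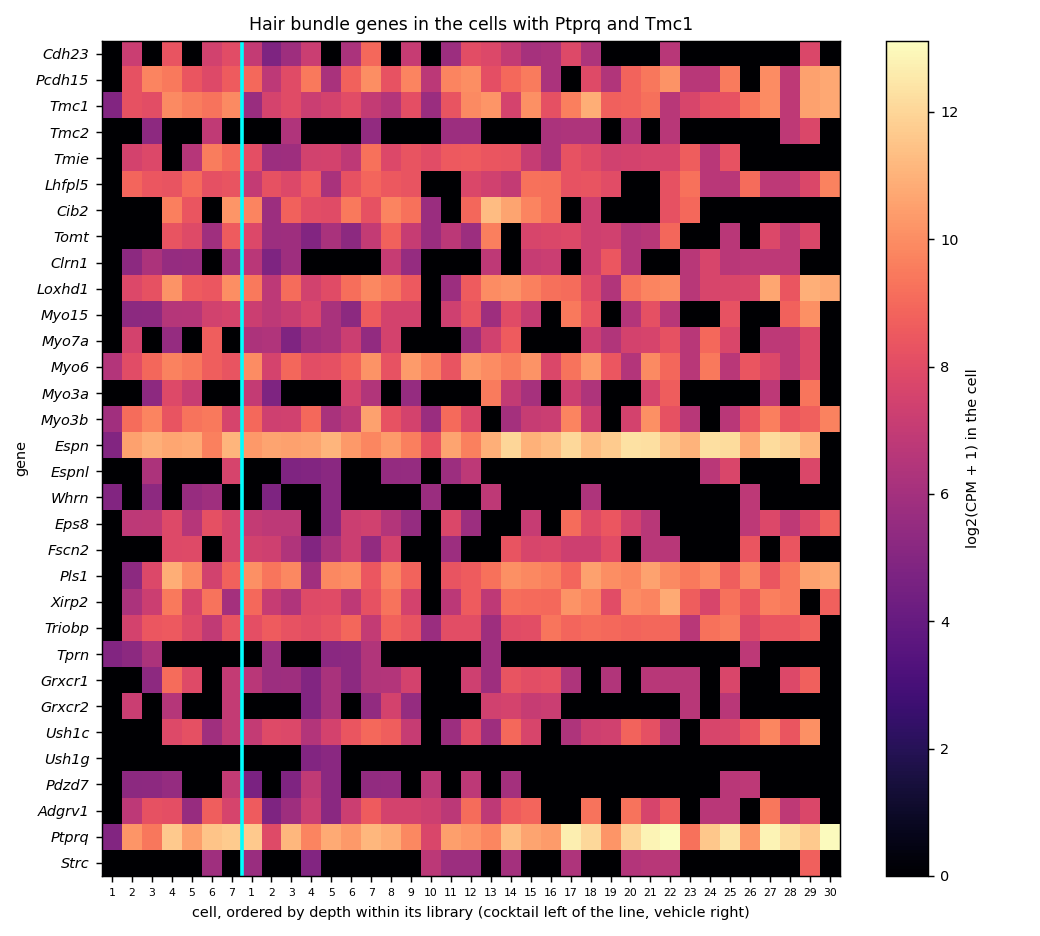
Level of each bundle gene, as log2(CPM + 1) in colour, in each of the 7 cocktail cells and 30 vehicle cells with Ptprq and Tmc1, ordered by depth within a library. Espn, Ptprq, Loxhd1, Pls1 and Myo6 are bright in nearly every column, and the first cocktail column, the cell with 7 genes, is mostly black.

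Within these cells, 2 of the 26 bundle genes with at least 20 UMIs were at least 2-fold lower in cocktail, where 10.4% of all genes were, and none was 2-fold higher, where 6.87% of all genes were. This share is near that of all genes. The genes were Ush1c (log2 -1.40, -2.32 to -0.60) and Myo15 (-1.20, -2.21 to -0.33). The counting interval lay wholly below 0 for 9 of the 26 genes (9.07% of all genes), namely Cib2, Myo15, Myo6, Espn, Pls1, Xirp2, Triobp, Ush1c and Ptprq, and wholly above 0 for Myo3b (8.62% of all genes). The summed level of the 32 genes was 7982 CPM in cocktail and 10634 in vehicle, a log2 difference of -0.41 (-0.50 to -0.33). Ptprq and Tmc1 choose these cells and enter these counts. The other 30 genes summed to 5928 and 7929 CPM, a log2 difference of -0.42 (-0.52 to -0.32), and 2 of 24 were at least 2-fold lower. Without the cocktail cell with 7 genes the difference of the 32 genes was -0.09, and 1 gene in place of 2 was at least 2-fold lower. With the highest cell of each gene left out, 7 genes were, and the summed difference was -0.81. That step takes 1 of 7 cocktail cells but 1 of 30 vehicle cells for each gene. It lowers the cocktail values more by design, so it is no check of this difference. Other values differed between the libraries in the same cells: Epcam stood at 153 CPM in cocktail and 852 in vehicle, Gal at 4310 and 902, and at least 3 Gal UMIs were present in 4 of 7 and 7 of 30 cells. Their part in the difference was not tested.

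Gal and Cck rich cells had a smaller set of bundle genes. After thinning to 5000 UMIs, Cib2, Myo6, Espn, Triobp and Tprn were seen in at least 10% of the cells in both libraries, Pls1 in cocktail and Eps8 in vehicle. Cib2, a calcium-binding partner of the TMC channel, stood at 111 CPM (98.0 to 125) and 83.7 (70.7 to 98.3), and in 30.4% and 29.1% of thinned cells against 9.09% and 4.37% in mesenchyme. Tprn (taperin), a protein of the base of stereocilia, stood at 42.6 CPM (34.7 to 51.8) and 49.0 (39.2 to 60.5). In the cells with Ptprq and Tmc1 it stood at 24.5 CPM (6.68 to 62.8) and 15.4 (6.64 to 30.3), which was 0.575-fold (0.154 to 1.52) and 0.314-fold (0.132 to 0.648) of that level. Espn stood at 29.1 and 29.0 CPM and Myo3b at 20.7 and 23.3. The median depth of Gal and Cck rich cells was 6787 UMIs in cocktail and 12378 in vehicle. The genes seen in both libraries were not particular to this group. In cells in no group with an Epcam UMI, Cib2 stood at 106 and 103 CPM and Myo6 at 121 and 124. There, Triobp stood at 96.0 and 88.4 CPM, Tprn at 40.5 and 30.8 and Espn at 28.2 and 62.7.

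Compared with mesenchyme, 10 of 16 bundle genes were at least 2-fold higher in Gal and Cck rich cells in both libraries, where 19.3% of all genes were: Cdh23, Cib2, Myo15, Myo3b, Espn, Pls1, Triobp, Tprn, Ush1c and Ptprq. Eps8 was the 1 lower gene (15.9% of all genes), at 21.5 and 19.4 CPM against 50.9 and 56.0. Some of these levels rest on few cells. All 40 Ptprq UMIs of the vehicle group came from 1 cell, and 74 of 161 Pcdh15 UMIs in cocktail and 52 of 125 in vehicle came from 1 cell each, with 10 and 11 bundle genes. Hair cell genes outside the bundle were present in the same cells: 13 of the 14 had UMIs, at a summed 1717 and 1449 CPM, of which Pvalb held 961 and 823 and Hes6 547 and 416. Cabp2 (0 and 1.14 CPM), Pou4f3 (3.38 and 0), Gfi1 (4.22 and 7.40) and Slc17a8 (4.22 and 3.98) were near 0, and 5 of 165 and 2 of 115 cells had at least 3 of 8. Their part in the bundle gene levels was not tested. Tmc2, Clrn1, Fscn2, Xirp2, Grxcr1 and Grxcr2 had no UMI there in either library. Between the libraries, Whrn and Ptprq were the 2 of 15 genes at least 2-fold lower in cocktail (3.23% of all genes) and none was higher (2.61%), and the interval for Whrn reached 0 (log2 -1.10, -2.27 to 0.02).

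Ceacam16 cells had a different profile, led by Ush1c. Harmonin also serves the brush border of other epithelia. It stood at 187 CPM (162 to 215) in cocktail and 163 (129 to 203) in vehicle, and was seen in 47.5% and 58.8% of thinned cells, against 5.43% and 6.33% of Gal and Cck rich cells. Mesenchyme had no Ush1c UMI in 92 and 190 cells, which allows up to 1.39 and 0.721 CPM. The measured level in Ceacam16 cells was 135-fold and 226-fold these limits. In cocktail it lay above the level of the cells with Ptprq and Tmc1 (85.8 CPM), and in vehicle below it (227 CPM). Pls1 was the second such gene, at 119 and 132 CPM against 45.1 and 37.0 in Gal and Cck rich cells and 0.463 and 1.44 in mesenchyme. Triobp stood at 88.2 and 84.5 CPM and Espn at 49.9 and 33.0.

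Against mesenchyme, 6 of 15 genes were higher in Ceacam16 cells in both libraries (11.4% of all genes): Cib2, Espn, Pls1, Triobp, Tprn and Ush1c. Whrn and Eps8 were the 2 lower genes (18.7% of all genes). Against Ceacam16 cells, Gal and Cck rich cells were higher in 6 of 15 genes (18.1% of all genes), namely Cdh23, Cib2, Myo3b, Whrn, Tprn and Ptprq, and lower in 2 (8.76%), Pls1 and Ush1c. Several of these calls rest on few UMIs, since Tprn had 3 and Whrn 2 UMIs in vehicle Ceacam16 cells. Cdh23 had 2 and 0 UMIs in Ceacam16 cells against 56 and 31 in Gal and Cck rich cells. Myo3b had 2 and 1 against 49 and 41. Ptprq had 0 and 0 against 4 and 40, and all 40 came from the same cell. Cdh23, Myo3b and Ptprq therefore passed the limit of 20 UMIs only through Gal and Cck rich cells. Tmc1, Tmc2, Lhfpl5, Clrn1, Loxhd1, Myo3a, Espnl, Xirp2, Grxcr1, Grxcr2, Ptprq and Strc had no UMI in Ceacam16 cells in either library. Of 9 genes compared between the libraries, none was 2-fold lower in cocktail (2.9% of all genes) and 2 were 2-fold higher (3.92%), Cib2 at 32.6 against 14.4 CPM and Tprn at 17.3 against 6.19 CPM, and both intervals reached 0. The summed level was 619 CPM in cocktail and 625 in vehicle.

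The levels of Ush1c, Pls1 and Cib2 also went with Epcam in the cells left in no group. Ush1c stood at 56.4 and 59.0 CPM in those with an Epcam UMI and 1.94 and 1.06 in those without, Pls1 at 78.2 and 80.7 against 6.69 and 1.98, and Cib2 at 106 and 103 against 25.7 and 24.6. Eps8 did not follow it, at 26.2 and 27.9 CPM against 24.7 and 21.3. The cells with Epcam were deeper, with medians of 16277 and 12228 UMIs against 4511 and 8365.

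In mesenchyme, Myo6, Eps8, Pcdh15 and Triobp were the 4 genes seen in at least 10% of thinned cells in both libraries. Eps8 stood at 50.9 CPM (41.9 to 61.4) and 56.0 (49.1 to 63.7), Myo6 at 62.1 and 79.8, Pcdh15 at 37.5 and 49.5, and Triobp at 29.6 and 33.2. Cib2 (29 and 29 UMIs) and Tmie (17 and 61) were counted at lower levels, and the crosslinker genes Espn (4 and 8) and Pls1 (1 and 6) had few UMIs. Whrn (whirlin), a tip scaffold, stood at 7.87 CPM (4.59 to 12.6) and 14.2 (10.8 to 18.3). In the cells with Ptprq and Tmc1 it stood at 24.5 CPM (6.68 to 62.8) on 4 UMIs in cocktail and 13.5 (5.41 to 27.7) on 7 UMIs in vehicle, so the order of these groups differed between the libraries and the intervals overlap in both. Tmc2, Clrn1, Loxhd1, Grxcr1, Grxcr2, Ush1c and Ush1g had no UMI in mesenchyme in either library. These cells were the deepest group in vehicle and cocktail, with medians of 20309 and 24674 UMIs, so these zeros stood in the deepest group.

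Between the libraries, 1 of 10 genes in mesenchyme was at least 2-fold lower in cocktail (4.74% of all genes) and none was higher (2.91%). This gene was Ptprq, with 0 UMIs in cocktail and 25 UMIs in 12 vehicle cells, a log2 difference of -2.11 or below with the count of 0 set to 3. The summed level was 230 CPM in cocktail and 282 in vehicle (log2 -0.30, -0.45 to -0.14). Osteoblast markers differed in the same cells, at a summed 802 CPM in cocktail and 4862 in vehicle, and their part in these differences was not tested.

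**Figure D4:**
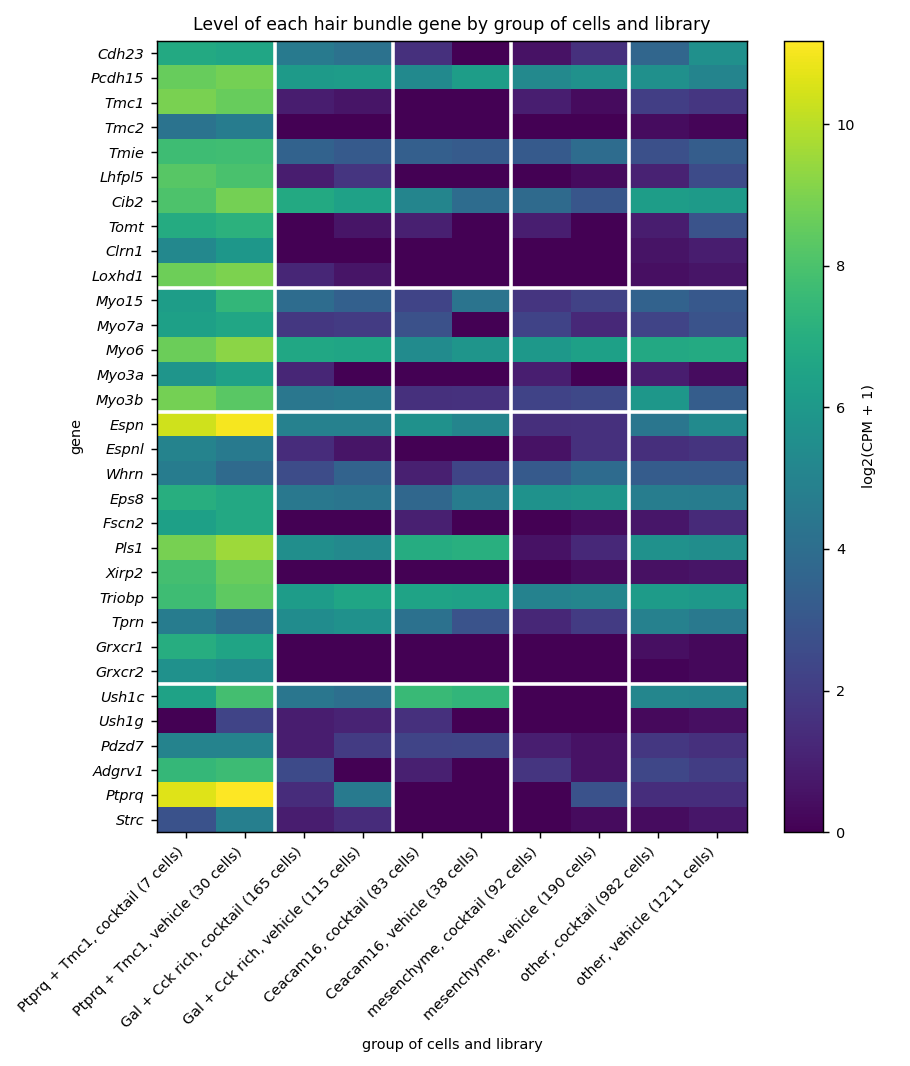
Level of each bundle gene, as log2(CPM + 1) in colour, by group of cells and library, with genes in rows ordered by role (white lines) and the number of cells under each column. Within a row, the first pair of columns is brightest for most genes, while Ush1c and Pls1 are also bright in Ceacam16 cells, Tprn in Gal and Cck rich cells and Eps8 in mesenchyme.

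Over all kept cells, 11 of the 31 bundle genes with at least 20 UMIs were at least 2-fold lower in cocktail, where 4.85% of all genes were: Cdh23, Lhfpl5, Tomt, Clrn1, Loxhd1, Espn, Fscn2, Xirp2, Grxcr2, Ptprq and Strc. Myo3b was the 1 higher gene (3.55% of all genes). The median log2 difference over the 31 genes was -0.67, against -0.03 over all genes, and 25 were lower and 6 higher by any amount. The share of cells with Ptprq and Tmc1 was also lower in cocktail, by 1.37 percentage points (0.575 to 2.21), and its part in this count cannot be told apart from other differences between the 2 libraries. When at least 3 of 8 hair cell markers outside the bundle defined the cells instead, the shares were 1.58% and 2.53%, a difference of -0.945 percentage points (-1.99 to 0.114). Espn went from 1796 UMIs in vehicle to 618 in cocktail (log2 -1.30, -1.44 to -1.17), Loxhd1 from 274 to 77 (-1.59, -1.98 to -1.22) and Xirp2 from 212 to 43 (-2.06, -2.57 to -1.59).

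With the cells with Ptprq and Tmc1 left out, 5 of 26 genes were lower (4.39% of all genes) and 2 higher (3.7%), and the median was -0.11. The lower genes were Cdh23, Lhfpl5, Tomt, Fscn2 and Ptprq, and the higher genes Myo3b and Myo3a. Ptprq and Tmc1 choose the cells left out, and without these 2 genes the counts of lower genes were 10 of 29 over all kept cells and 4 of 24 here. The summed level of the 32 genes changed sign, from -0.28 (-0.31 to -0.25) to 0.10 (0.06 to 0.14), and that of the other 30 went from -0.19 (-0.23 to -0.16) to 0.11 (0.07 to 0.15). Adgrv1 went from -0.38 to 0.74 and Myo3a from -0.65 to 1.98, the last on 17 and 5 UMIs. Of the genes with under 25% of their UMIs in these cells, Pcdh15 went from 0.09 to 0.33, Cib2 from 0.12 to 0.31, Ush1c from 0.22 to 0.42, Triobp from 0.03 to 0.15 and Myo6 from -0.19 to -0.08, each past its own counting interval over all kept cells. Eps8 (-0.18 to -0.15) and Tprn (0.43 to 0.42) stayed within theirs, as did Cdh23, Whrn and Espnl.

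**Figure D5:**
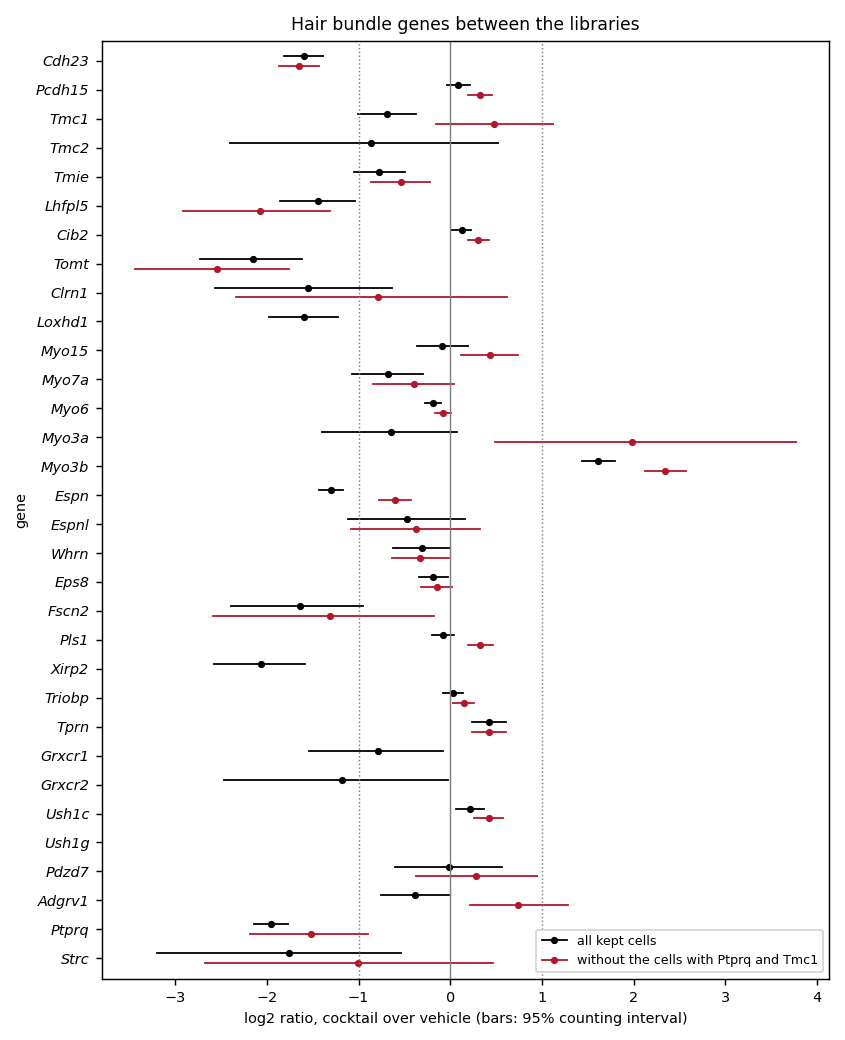
Log2 ratio of cocktail over vehicle for each bundle gene with at least 20 UMIs, with its 95% counting interval, over all kept cells (black) and without the cells with Ptprq and Tmc1 (red), with dotted lines at 2-fold. The red points lie to the right of the black ones for most genes, and Myo3b, Cdh23, Tomt, Lhfpl5, Fscn2 and Ptprq are past 2-fold in both colours. Points are drawn without the prior of 0.5 count, so Strc (black -1.76, red -1.01) is also past the line in both. With the prior, Strc was not counted as 2-fold lower without these cells.

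Single cells set several of these values. One cocktail cell in no group held 671 of the 962 Myo3b UMIs, 2.14% of all its UMIs, and had 5 bundle genes. With the top cell for Myo3b removed from both libraries, its difference was 0.03 in place of 1.61. A vehicle cell with 1 bundle gene held 351 of 860 Cdh23 UMIs and the next cell 176, and the difference without the highest cells was -1.01. Another vehicle cell held 81 of 178 Tomt UMIs, and without the highest cells Tomt stood at -1.59 in place of -2.13. The highest Lhfpl5 cell in vehicle, with 39 of 214 UMIs, lay in no group but had 19 bundle genes and 39 Otof UMIs, and the difference was -1.45 without the highest cells. The Myo3b call thus rested on 1 cell.

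Of 27 other genes of the hair bundle and its support, listed from general knowledge, 26 were in the matrices. Against Gal and Cck rich cells, 10 of the 23 compared were at least 2-fold higher in cells with Ptprq and Tmc1 in both libraries and 4 lower, beside the 15% and 8.39% of all genes given above. The higher genes were Elmod1 (276 and 398 CPM), Smpx, Clic5, Atp2b2, Ripor2, Kncn, Calml4, Twf2, Gipc3 and Ankrd24. The lower genes were Myo1c, Fscn1, Pls3 and Capzb, actin genes of wide use. In cocktail cells with Ptprq and Tmc1, Myo1c and Pls3 had 0 UMIs and Fscn1 2, and their intervals included no difference. Pls3, the relative of Pls1, had a reverse distribution, at 0 and 1.92 CPM in cells with Ptprq and Tmc1 and 163 and 170 in mesenchyme. Cib3, the relative of Cib2, stood at 2783 and 977 CPM in cells with Ptprq and Tmc1, 386 and 503 in Gal and Cck rich cells and 0 in mesenchyme. Between the libraries over all kept cells, 5 of 25 of these genes were 2-fold lower in cocktail (Atp2b2, Elmod1, Insc, Smpx and Kncn) and none higher, beside the 4.85% and 3.55% of all genes given above. With the cells with Ptprq and Tmc1 left out, 1 of 24 was lower, Insc, and none higher. Kncn then had under 20 UMIs and was not counted. Within the cells with Ptprq and Tmc1, Atp2b2, the calcium pump of the bundle, had 5 UMIs in cocktail and 117 in vehicle (log2 -2.88, -4.53 to -1.61), and Cib3 454 and 508 UMIs (1.51, 1.32 to 1.70).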

How the data were processed

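The authors deposited raw UMI counts per gene and barcode, and per the file headers Cell Ranger 5.0.0 wrote them. Both mm10 and GRCm38 are named as builds in the submitters' processing notes, with Seurat 3.2.2, STAR and Cell Ranger 5.0 as tools. The annotation release and the use of strand in counting are not given in the sources used here, and 12 of the 32 genes overlap a gene on the opposite strand, whose reads cannot be told apart without strand. Gene positions came from GENCODE M21 (GRCm38). Counts were added up within each library or group in Python 3.11.15 (numpy 2.4.6, scipy 1.17.1) and scaled to CPM. Intervals are exact Poisson for levels, Clopper-Pearson for shares, Newcombe for differences of shares and exact conditional for ratios, at 95%. Ratios that count towards 2-fold calls have a prior of 0.5 count and at least 20 UMIs, and a count of 0 is bounded at 3 counts per library and group. Between groups of cells the 20 UMIs are summed over both groups and libraries, so a gene can pass only through the group where it is high. No p-value was computed. Scrublet (scanpy 1.11.5) called 0 cocktail and 2 vehicle cells, none in a group, and they were kept. The caller misses doublets of like cells. Free RNA was not subtracted. Ratios were tested on simulated data: over all kept cells, with 17260 genes in the step, the intervals covered 0 for 95.7% of unchanged genes. The simulated counts were Poisson, which the intervals assume, and had no single cells that hold many UMIs of a gene. This coverage therefore checks the computation only. In the simulated cells with Ptprq and Tmc1, 6.64% of unchanged genes lay past 2-fold. All 32 genes are accounted for by rule. The genes, groups and lists were chosen with earlier results of these data known. From the list of other bundle genes, 1 gene is not reported here and enters no count of that list. The alternatives tried covered scaling, filters, group limits, single cells and doublets.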

Additional observations from a re-analysis of the deposited data

How the results depend on the processing

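No paired analysis was possible because each condition is 1 library, and for the same reason no replicate could be left out. Over all kept cells, the number of bundle genes at least 2-fold lower in cocktail was 5 with the cells with Ptprq and Tmc1 left out (11 in the report). Without those cells 26 genes had at least 20 UMIs, in place of 31. The number higher was 2 with those cells left out and 0 with the highest cell of each gene left out (1 in the report). The summed log2 difference was -0.25 scaled by the median of gene ratios, -0.44 as a mean of per-cell CPM, -0.34 without the highest cells and, reversed, 0.10 without the cells with Ptprq and Tmc1. The last alternative and those without the cocktail cell with 7 genes were chosen after seeing the data.

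Within cells with Ptprq and Tmc1, lower genes numbered 7 without the highest cells and 1 each with a looser limit, a stricter limit and without the cocktail cell with 7 genes. The summed difference there was -0.81 without the highest cells, -0.23 with a looser limit, -0.0947 with a stricter limit and -0.0883 without that cell. Leaving out the highest cells takes 1 of 7 cocktail cells but 1 of 30 vehicle cells for each gene, so it lowers the cocktail values more by design. In Gal and Cck rich cells, lower genes numbered 1 without the highest cells and 0 with the looser limit, and higher genes 1 with per-cell means and 1 with the stricter limit. The summed difference there was 0.16 with per-cell means and 0.12 with the looser limit. In Ceacam16 cells, lower genes numbered 2 with per-cell means and 1 with the stricter limit, and higher genes 1 with per-cell means, without the highest cells and with either limit. The summed difference there was -0.23 with per-cell means and 0.24 with the stricter limit. In mesenchyme, lower genes numbered 3 with per-cell means, 0 without the highest cells, 0 with the looser and 2 with the stricter limit, and higher genes 1 with the stricter limit, while the summed difference was -0.56 with per-cell means. Except where fewer cells enter, the cause was not tested.

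The cocktail share of cells was 1.58% and the vehicle share 2.53% when at least 3 of 8 hair cell markers replaced Ptprq and Tmc1. Genes seen in at least 10% of cells numbered 3 (cocktail) and 3 (vehicle) in Gal and Cck rich cells thinned to 2000 UMIs and 10 and 12 unthinned, 4 in cocktail Ceacam16 cells thinned to 2000 UMIs, and 1 and 2 in mesenchyme thinned to 2000 UMIs and 7 and 7 unthinned. The counts between groups of cells stayed within 1.5 times under every alternative run. No alternative was run for the counts of cells with Ptprq and Tmc1 against Ceacam16 cells or against mesenchyme. Of 217 values of single genes over all kept cells, 179 stayed within their counting interval, 38 moved, and no difference past 2-fold changed sign. Depth limits the 7 cocktail cells with Ptprq and Tmc1 most, where 0 UMIs allow 18.4 CPM.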
